A study of Mus musculus with 4 samples.

Results

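Chemokine ligands are small secreted proteins that draw leukocytes along gradients and bind G-protein-coupled receptors on the responding cells. They are named after the spacing of their first cysteines (CC, CXC and CX3C), and many lie in tight clusters that arose by local gene duplication. Inflammatory members such as Ccl2 and Cxcl1 are switched on by NF-kappa-B, whereas others such as Cxcl12 are made steadily by stroma and epithelium. Mammary tumours use both kinds to recruit macrophages, neutrophils and lymphocytes. Slug (gene Snai2) and Snail (gene Snai1) are zinc finger repressors that drive the epithelial-mesenchymal transition and recognise the E-box CAGGTG.

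The genes described here are the RefSeq protein-coding mouse genes whose symbols are Ccl with a number and an optional letter, Cxcl with a number, or Cx3cl1. The rule finds 38 of 21887 protein-coding genes. One of them, Ccl21c, labelled as on chromosome 4, was taken to lie off the assembled chromosome. This was inferred from a break in the order of start positions in the gene table. Leaving out such genes gives 37 of 21774. Slug was mapped by chromatin immunoprecipitation and sequencing (ChIP-seq) in pBl.1G, an epithelial line labelled as high in Slug, with a rabbit monoclonal antibody to Slug. Snail was mapped in pBl.3G, a mesenchymal line labelled as high in Snail, with an antibody labelled as directed at Snail and Slug. Both are breast cancer lines from MMTV-PyMT mice, in which the mouse mammary tumour virus promoter drives polyoma middle T antigen, and both were fixed in 1% formaldehyde for 10 min. The study asked how the 2 factors differ in activating the transition. There is 1 ChIP library of each factor, so no difference between them can be tested across replicates, and factor, antibody and cell line cannot be told apart. Expression was not measured in these files, so the labelled state of the lines was not checked against markers, and a peak near a gene says nothing of whether that gene was on.

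A peak was assigned to a gene when its midpoint lay within 10 kb of either end of the gene, and each peak was counted once. By this rule 26 distinct Slug peaks and 24 distinct Snail peaks lay near chemokine ligand genes, out of 41612 Slug and 28375 Snail peaks in all. Slug peaks were found near 19 of the 37 genes (51.4%, exact 95% interval 34.4 to 68.1), against 47.9% of all protein-coding genes. Snail peaks lay near 12 (32.4%, 18.0 to 49.8), against 64.4% of all protein-coding genes. The Slug share was thus near that of genes at large, while the Snail share was below it. The intervals treat genes as independent draws, although neighbouring members can share a peak.

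Closer in, Slug peaks lay within 1 kb of an end of 3 members (8.11%), against 12.2% of all protein-coding genes. Snail peaks lay that close to 7 members (18.9%), against 49.0%. No member had both that close, against 8.92% of all genes, so 3 had Slug alone (against 3.27%), 7 had Snail alone (against 40.0%) and 27 had neither (against 47.8%). Within 10 kb, Slug was near 12 of the 24 CC genes and Snail near 5. Of the 12 CXC genes, 6 were near Slug peaks and 6 near Snail peaks. The Slug counts of both subfamilies were close to the 47.9% of all genes. The Snail count of the CC genes was below the 64.4%, while that of the 12 CXC genes was nearer to it. No interval was computed for the subfamilies. Cx3cl1, the single CX3C gene, had both.

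The members fell into 4 classes. Slug alone marked 12 genes, which were Ccl5, Ccl6, Ccl17, Ccl21b, Ccl21d, Ccl22, Ccl24, Ccl26, Cxcl5, Cxcl9, Cxcl10 and Cxcl15 (32.4%, against 10.9% of all genes). Snail alone marked 5, which were Ccl27a, Cxcl1, Cxcl12, Cxcl16 and Cxcl17 (13.5%, against 27.4%). Both factors had a peak near 7, which were Ccl9, Ccl20, Ccl25, Ccl28, Cx3cl1, Cxcl2 and Cxcl14 (18.9%, against 37.0%). Neither was present near 13, which were Ccl1, Ccl2, Ccl3, Ccl4, Ccl7, Ccl8, Ccl11, Ccl12, Ccl19, Ccl21a, Ccl27b, Cxcl3 and Cxcl13 (35.1%, against 24.7%).

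**Figure D1:**
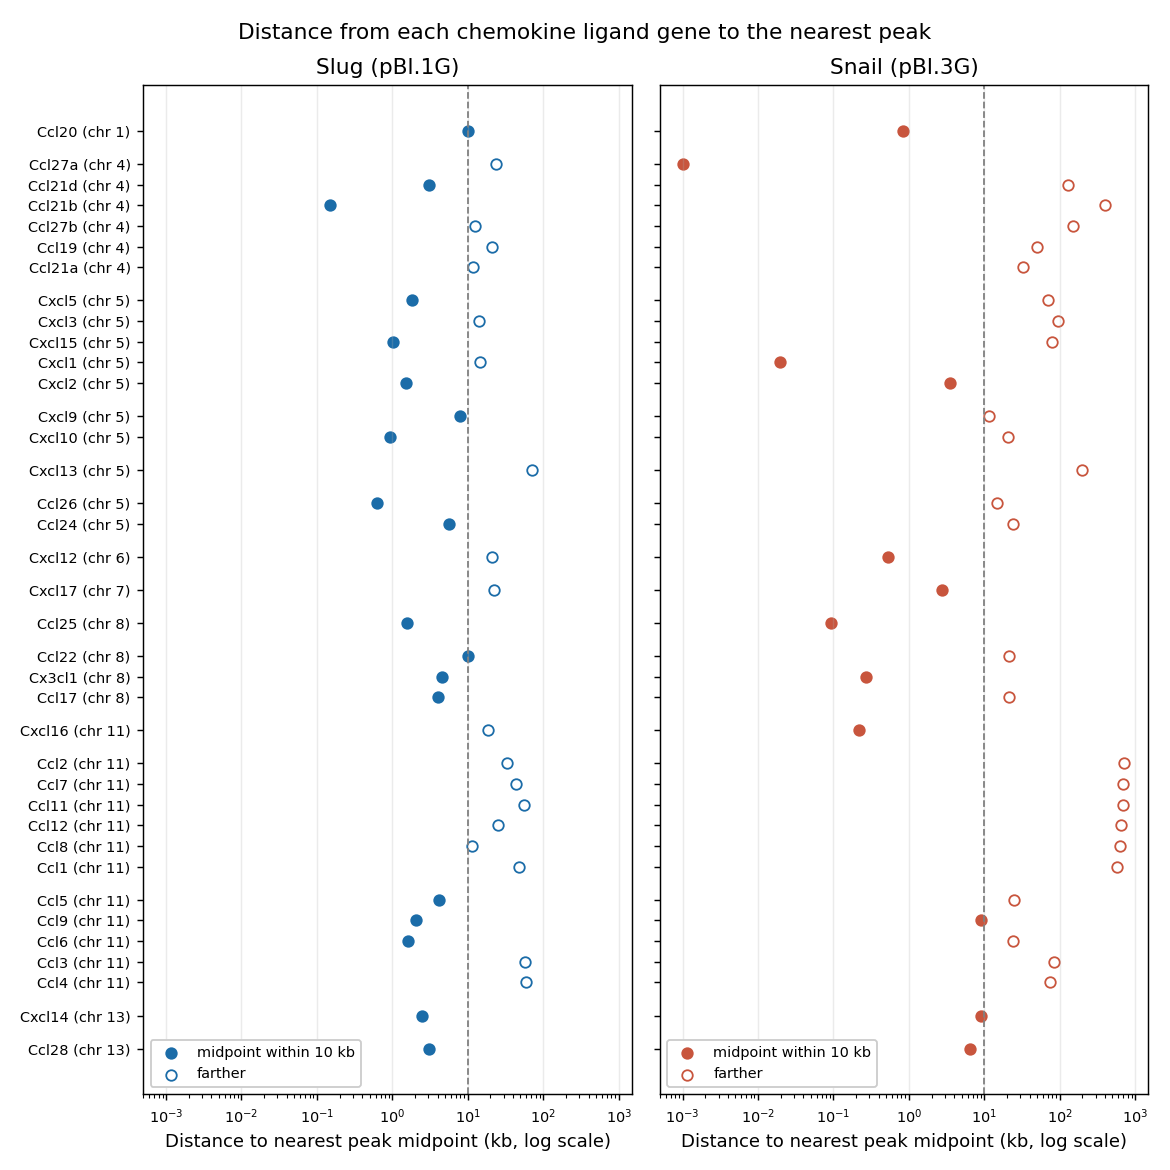
Distance in kb (log scale) from the nearer gene end of each of the 37 members to the nearest Slug (left) and Snail (right) peak midpoint, grouped by chromosomal cluster, with the 10 kb limit dashed. Slug distances stay at or below 71.5 kb in every member, while the 6 genes from Ccl2 to Ccl1 stand at the far right of the Snail panel.

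Promoters of members are shown first. No Slug peak overlapped any of the 33 annotated promoters, against 3.97% of all promoters, so the Slug count was near the background. Snail peaks overlapped 6 of the 33, against 49.2% of all promoters. A promoter is here the stretch from 250 bases before to 50 bases after an annotated start site, read on the coding strand, from the RefSeq table of build GRCm38.p6, the assembly of mm10. The table held promoters for 27 of the 37 members and lacked Ccl2, Ccl4, Ccl5, Ccl7, Ccl11, Ccl24, Ccl26, Cxcl5, Cxcl16 and Cxcl17. Capitals mark the E-box CAGGTG or its reverse complement CACCTG, and matches on either strand to the kappa-B consensus, the binding motif of NF-kappa-B. The Snail figure is 5 of 27 genes, against 51.1% of all genes with a promoter in the table. Slug had 0 of 27 genes, against 4.54%. Positions count from the start site, which is base 1 and is preceded by base -1. The 5 promoters below lay entirely under a Snail peak, and stand for the 5 genes with such a peak.

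Cxcl1, chr5:90890995-90891294, plus strand: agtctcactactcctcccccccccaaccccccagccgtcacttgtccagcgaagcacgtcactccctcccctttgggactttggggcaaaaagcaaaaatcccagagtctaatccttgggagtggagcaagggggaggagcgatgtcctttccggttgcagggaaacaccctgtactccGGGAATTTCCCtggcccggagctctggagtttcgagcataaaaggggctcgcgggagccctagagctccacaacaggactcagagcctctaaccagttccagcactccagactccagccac

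Cxcl12, chr6:117168285-117168584, plus strand: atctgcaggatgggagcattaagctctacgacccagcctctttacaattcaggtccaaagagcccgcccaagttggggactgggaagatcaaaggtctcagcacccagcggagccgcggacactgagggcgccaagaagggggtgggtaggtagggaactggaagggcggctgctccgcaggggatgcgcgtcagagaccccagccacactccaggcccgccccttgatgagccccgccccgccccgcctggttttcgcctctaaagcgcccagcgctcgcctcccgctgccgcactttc

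Cx3cl1, chr8:94771930-94772229, plus strand: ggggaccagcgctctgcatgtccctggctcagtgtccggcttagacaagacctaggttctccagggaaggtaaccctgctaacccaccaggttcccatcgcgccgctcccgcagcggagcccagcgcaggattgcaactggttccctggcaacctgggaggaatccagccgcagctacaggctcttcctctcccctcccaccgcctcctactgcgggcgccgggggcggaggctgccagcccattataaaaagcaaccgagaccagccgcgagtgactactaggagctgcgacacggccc

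Ccl25, chr8:4324960-4325259, plus strand: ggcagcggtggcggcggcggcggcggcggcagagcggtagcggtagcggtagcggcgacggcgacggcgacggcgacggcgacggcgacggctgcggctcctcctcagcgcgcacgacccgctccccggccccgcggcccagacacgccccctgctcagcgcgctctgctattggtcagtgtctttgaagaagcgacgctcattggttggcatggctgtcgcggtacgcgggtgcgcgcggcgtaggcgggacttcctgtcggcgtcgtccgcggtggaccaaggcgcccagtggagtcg

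Ccl27a, chr4:41774052-41774351, minus strand: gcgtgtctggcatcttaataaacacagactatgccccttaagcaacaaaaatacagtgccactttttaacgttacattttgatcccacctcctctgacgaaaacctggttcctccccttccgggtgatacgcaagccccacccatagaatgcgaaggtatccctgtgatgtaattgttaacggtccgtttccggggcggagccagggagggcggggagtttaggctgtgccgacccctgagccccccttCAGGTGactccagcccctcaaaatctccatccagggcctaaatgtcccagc

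Among these 5 the Ccl27a sequence holds the E-box, which begins at position -1. Of all 6 member promoters with a Snail peak 1 (16.7%) holds it, the same as the 16.7% of all 10472 promoters with a Snail peak. Cxcl1 holds overlapping kappa-B matches on both strands between positions -71 and -61 and no CAGGTG or CACCTG. Cxcl12, Cx3cl1 and Ccl25 hold neither motif in this window. The next 3 promoters had no Snail peak over them and serve as contrasts: Cxcl2 is the neighbour of Cxcl1 and carries the same kappa-B arrangement, Ccl28 carries 2 E-boxes, and Cxcl14 is rich in CpG.

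Cxcl2, chr5:90903649-90903948, plus strand: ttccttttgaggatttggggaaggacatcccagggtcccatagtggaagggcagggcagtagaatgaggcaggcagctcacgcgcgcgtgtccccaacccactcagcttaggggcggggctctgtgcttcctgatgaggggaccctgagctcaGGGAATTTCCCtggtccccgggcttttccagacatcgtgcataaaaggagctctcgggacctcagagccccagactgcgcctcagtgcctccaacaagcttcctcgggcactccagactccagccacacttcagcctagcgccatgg

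Ccl28, chr13:119623569-119623868, plus strand: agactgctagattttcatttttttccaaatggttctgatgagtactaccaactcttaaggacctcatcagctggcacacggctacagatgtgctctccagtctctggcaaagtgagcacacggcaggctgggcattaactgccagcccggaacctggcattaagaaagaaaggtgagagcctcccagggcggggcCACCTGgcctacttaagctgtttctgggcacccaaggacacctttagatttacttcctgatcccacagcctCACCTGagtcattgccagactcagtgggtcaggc

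Cxcl14, chr13:56296502-56296801, minus strand: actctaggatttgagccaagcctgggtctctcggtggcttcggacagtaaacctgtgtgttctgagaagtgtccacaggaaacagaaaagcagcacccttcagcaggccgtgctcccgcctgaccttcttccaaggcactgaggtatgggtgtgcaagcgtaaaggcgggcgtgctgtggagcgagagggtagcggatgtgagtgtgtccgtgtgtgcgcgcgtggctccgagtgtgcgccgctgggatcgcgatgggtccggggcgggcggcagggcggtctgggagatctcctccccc

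In Cxcl2 the kappa-B matches lie between positions -97 and -87. In Ccl28 the E-boxes begin at positions -55 and 17. Over all members, CAGGTG or CACCTG occurred in 6 of 33 promoters (18.2%), against 19.7% of 21263 promoters of protein-coding genes. The wider E-box pattern CANNTG, which includes those letters and reads alike on both strands, occurred in 25 (75.8%), against 69.0%. The kappa-B consensus occurred in 8 (24.2%), against 9.25% of all promoters. Its carriers were Ccl1, Ccl9, Ccl20, Cxcl1, Cxcl2, Cxcl3, Cxcl10 and the most downstream start of Ccl27a. Of these 8 promoters 1, that of Cxcl1, had a Snail peak over it, against 1118 of the 1967 promoters with the consensus overall. The Snail share of all 33 member promoters was itself low, at 18.2%. These matches describe the letters and do not show occupied sites.

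Most member promoters were poor in CpG, and 3 of the 5 richest had a Snail peak. The ratio of observed to expected CpG had a median of 0.27 in the 33 member promoters, against 0.57 in all promoters. Only 5 member promoters (15.2%) reached a ratio of 0.6, against 47.7% of all promoters. Snail peaks overlapped 3 of those 5, namely Cxcl12, Cx3cl1 and the upstream start of Ccl25, whereas 82.6% of all promoters at or above 0.6 had one. The 2 without were Cxcl14 and Ccl21b. Among promoters below 0.6, Snail peaks overlapped 3 of 28 in members, against 18.9% of all. These 3 were Cxcl1, with a ratio of 0.40, and both overlapping starts of Ccl27a, with ratios of 0.57 and 0.59. Slug peaks overlapped none of the 33 member promoters, against 3.97% of all promoters (6.05% of those at or above 0.6 and 2.09% of those below). Whether CpG content accounts for the low Snail share of these genes was not tested.

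**Figure D2:**
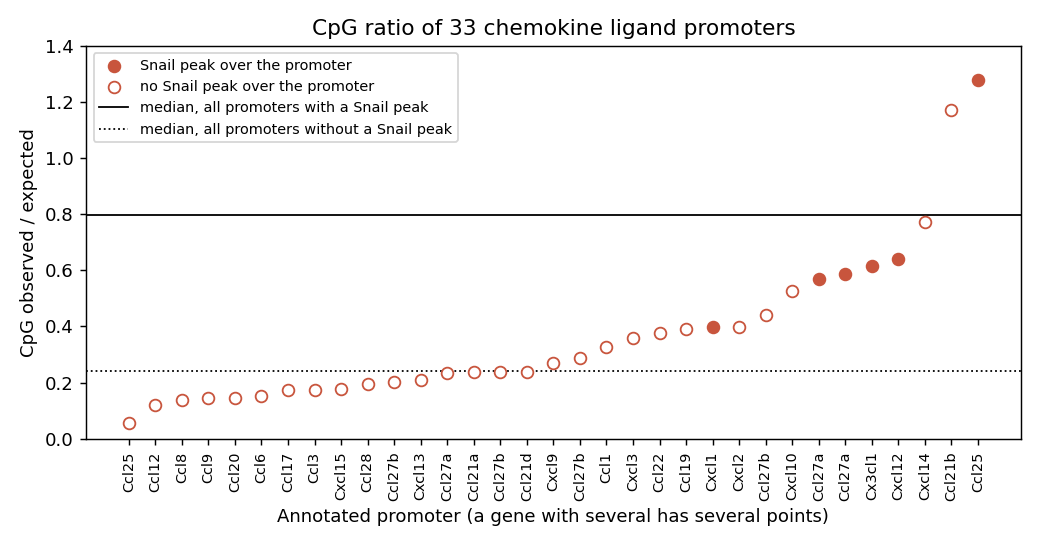
Observed over expected CpG (vertical axis) of the 33 annotated promoters of 27 members, in ascending order, filled where a Snail peak overlaps the promoter. Lines give the medians of all promoters with a Snail peak (0.80) and without one (0.24), and 5 of the 6 filled points lie above 0.5.

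On chromosome 11 the monocyte and eosinophil attractants had no peak of either factor close by. Ccl2 (MCP-1, the main monocyte attractant), Ccl7, Ccl11 (eotaxin), Ccl12, Ccl8 and Ccl1 span 144 kb between positions 82035577 and 82179812. None of the 6 had a Slug or a Snail peak within 10 kb. The score of a peak is the authors' peak caller value, of unstated scale, and is used here only to rank peaks within 1 list. One Slug peak, at chr11:82128188-82128351 with a score of 80.8, lay between Ccl8 and Ccl1, 11.5 kb from the nearer end of Ccl8. No Snail peak fell in the span at all.

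The distance to Snail peaks sets these 6 genes apart from the other members. Their nearest Snail peaks were 567 kb away for Ccl1 and 710 kb for Ccl2, with the other 4 between. A stretch of 1936 kb without a Snail peak, from 80810873 to 82747022, holds them and 4 further protein-coding genes, Spaca3, Asic2, 1700071K01Rik and Tmem132e. It ranks 125 by length among 28354 such stretches genome-wide, whose median was 24.0 kb. Over all protein-coding genes 5.08% were more than 500 kb from a Snail peak, against 6 of 37 members (16.2%), all 6 of them in this cluster. The nearest Slug peaks of the same genes were between 11.5 kb for Ccl8 and 55.3 kb for Ccl11.

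The second cluster of chromosome 11, from Ccl5 to Ccl4, held more peaks. Ccl5 (RANTES, a T cell attractant) had a Slug peak of score 111, 4.14 kb outside the gene. Ccl9, a macrophage chemokine of rodents, had a Slug peak of score 65.3 at 2.07 kb and a Snail peak of score 57.0 at 9.04 kb. Ccl6, its close relative, had a Slug peak of score 270 inside the gene, at chr11:83589358-83589670, above all but 3 other members in Slug score. Ccl3 and Ccl4 (MIP-1 alpha and beta), at the other end of the cluster, had no peak of either factor within 10 kb, and their nearest Slug peaks were 58.3 and 59.1 kb away.

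A site present in both lists lies between Ccl5 and Ccl9, outside the 10 kb limit of each. The Slug peak at chr11:83555109-83556211 scored 492 (percentile 97.3 of its list) and the Snail peak at chr11:83555115-83556248 scored 214 (percentile 58.1 of its list). The peaks overlap by 1097 bp, 17.3 kb from the nearer end of Ccl9 and 25.1 kb from that of Ccl5.

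**Figure D3:**
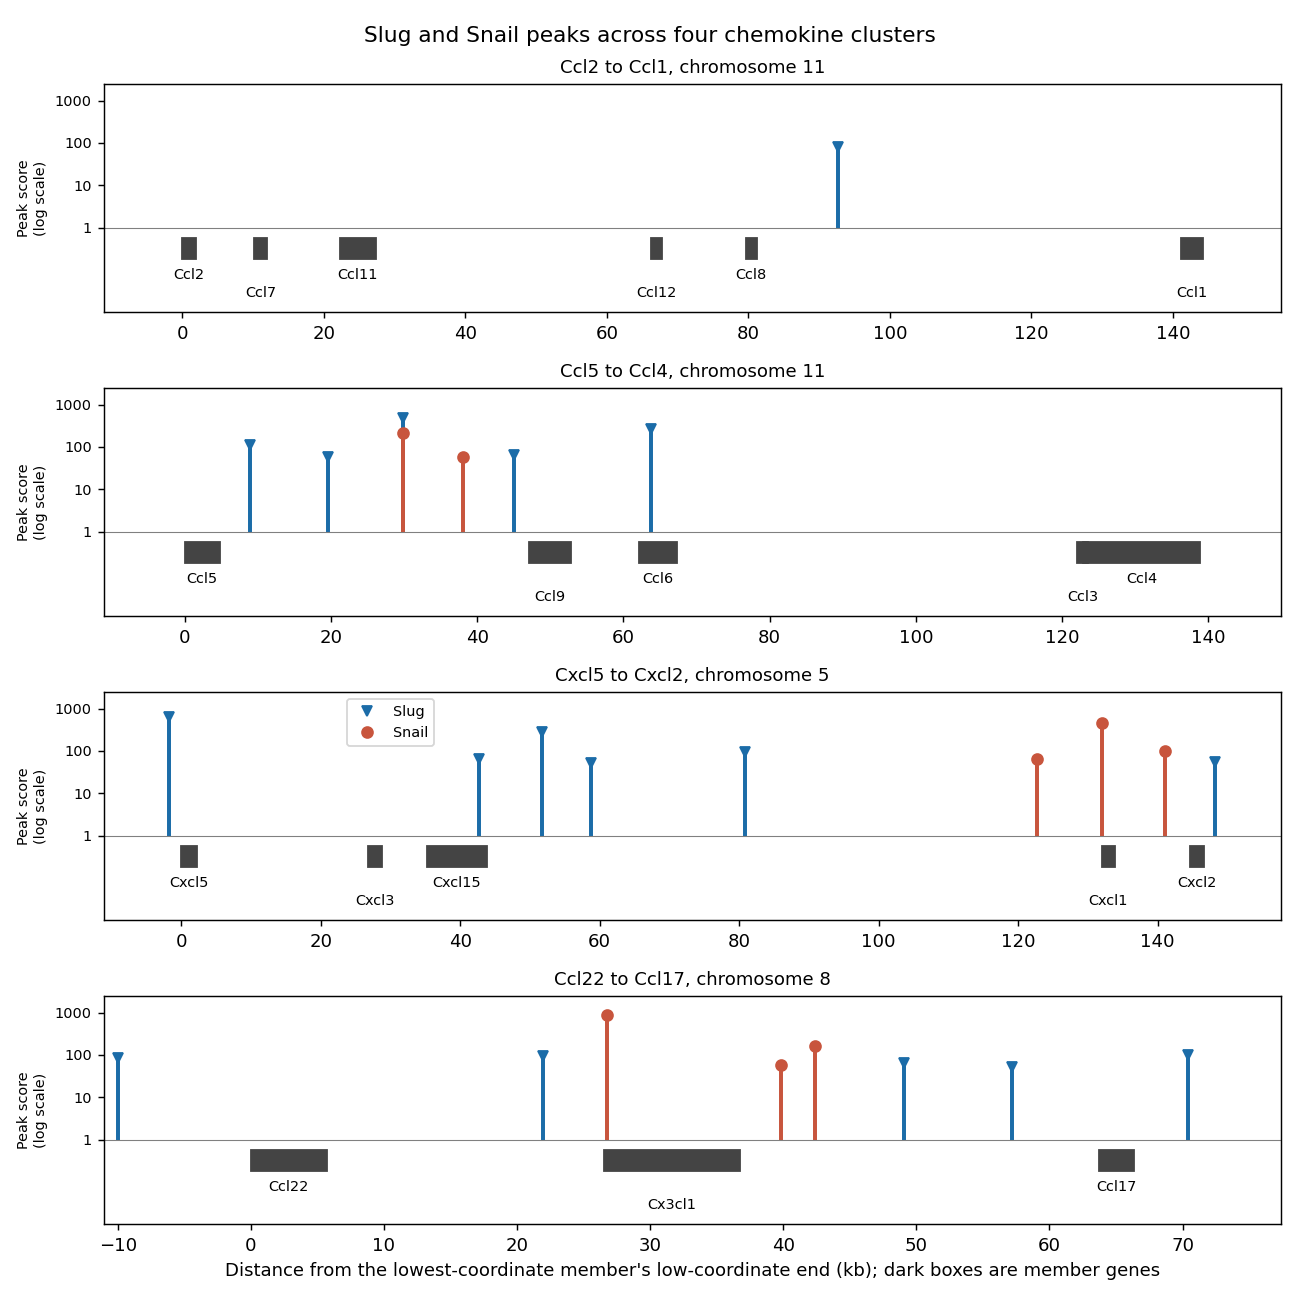
Slug (triangles) and Snail (circles) peaks by score (log scale) along 4 clusters, at their distance in kb from the low-coordinate end of the first member, with member genes as dark boxes. The Ccl2 to Ccl1 cluster shows a single Slug peak, whereas the Cxcl5 to Cxcl2 cluster has its 3 Snail peaks around Cxcl1 and, among 6 Slug peaks, the highest beside Cxcl5.

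On chromosome 5 the neutrophil attractants, most of which signal through Cxcr2, divided along the cluster. Cxcl5 had the highest-scoring Slug peak of any member, 646 at chr5:90757327-90757645, 1.81 kb outside the gene and at percentile 98.6 of the Slug list. The nearest Snail peak of Cxcl5 was 69.3 kb away. Cxcl15 (lungkine, made in mouse lung) had a Slug peak of score 281 at chr5:90810940-90811215, 8.01 kb from the gene, and one of 66.2 inside the gene, and no Snail peak. Cxcl3 had neither factor, with the nearest Slug peak at 13.9 kb.

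Cxcl1 (KC), at the other side of the cluster, had the reverse pattern. Its Snail peak at chr5:90890762-90891767 scored 457, at percentile 71.1 of the Snail list, and was centred 0.02 kb past the start site on the promoter printed above. Snail peaks of scores 63.7 and 101 lay 9.27 kb before the gene and 7.29 kb beyond it. The nearest Slug peak was 14.4 kb away. The Snail peak of score 101 was also the single Snail peak of Cxcl2 (MIP-2), 3.49 kb before its start site, and Cxcl2 had a Slug peak of score 54.8 at 1.54 kb beyond its far end. Pf4 and Ppbp, platelet chemokines in the same cluster whose symbols the naming rule misses, had no peak of either factor, and neither had Xcl1 on chromosome 1.

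The other chromosome 5 genes, apart from Cxcl13, had Slug peaks without Snail peaks within 10 kb. Cxcl9 and Cxcl10 are interferon-induced ligands of Cxcr3 on T cells. Cxcl10 had a Slug peak of score 263 at chr5:92345572-92345837, 0.93 kb from its far end and 3.18 kb past its start site, and another of 62.3. Both peaks were centred inside another gene, Art3, though an end of Cxcl10 was the nearest gene end. Cxcl9 had a Slug peak of score 342 at chr5:92313288-92313518, 7.93 kb from the gene, although an end of Sdad1 was nearer to it, at 3.38 kb. The nearest Snail peak of Cxcl9, of score 562, lay at 11.45 kb, not far outside the limit. That of Cxcl10, of score 71.4, lay at 20.4 kb. Ccl24 is an eotaxin, a ligand of Ccr3 on eosinophils, and its neighbour Ccl26 is named after a human eotaxin. They shared a Slug peak of score 249 at chr5:135564106-135564301, 0.63 kb from Ccl26 and 5.73 kb from Ccl24, and Ccl26 had a second of score 164. The nearest Snail peak, of score 451, was 14.7 kb from Ccl26 and 24.2 kb from Ccl24. Cxcl13, a B cell attractant, was far from both lists, with the nearest Slug peak at 71.5 kb and the nearest Snail peak at 200 kb.

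On chromosome 8 the Snail peak of Cx3cl1 (fractalkine, a membrane-bound ligand of Cx3cr1) covered the promoter shown above. It spanned chr8:94771801-94773102, scored 894 (percentile 86.3 of the Snail list) and was centred 0.27 kb past the start site. Snail peaks of scores 59.2 and 163 lay 3.08 and 5.63 kb beyond the gene. A Slug peak of score 94.1 lay 4.55 kb before the start site. The flanking genes Ccl22 and Ccl17, both ligands of Ccr4, had Slug peaks alone. Their scores were 84.0 for Ccl22, and 52.1 and 100 for Ccl17. An end of Ciapin1 was nearer to the peak of score 100, at 3.74 kb against 4.04 kb. The nearest Snail peaks of Ccl22 and Ccl17 were 21.1 and 21.3 kb away.

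Ccl25 (TECK), the thymic and gut ligand of Ccr9, lies alone on chromosome 8 and has 2 annotated start sites. A Snail peak of score 868 at chr8:4324846-4325750 was centred 0.09 kb past the upstream one, but an end of Elavl1, which encodes an RNA-binding protein, was 0.16 kb from the same peak centre. The downstream start, at 4349588, had no peak over it. A site present in both lists lay upstream of it, with a Slug peak at chr8:4345878-4346187 of score 187 (percentile 81.6 of its list) and a Snail peak at chr8:4345807-4346332 of score 105 (percentile 38.9 of its list), 14.0 kb from the nearer gene end. These Slug and Snail peaks were centred 3.6 and 3.5 kb before the downstream start. Within 10 kb of the ends Ccl25 had Slug peaks of scores 124 and 193. The peak of score 124 was centred inside Elavl1, an end of which was slightly nearer, at 5.43 kb against 5.50 kb.

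Snail peaks also lay within 1 kb of an end of Cxcl12, Cxcl16 and Ccl27a. Cxcl12 (SDF-1), the ligand of Cxcr4, had a Snail peak of 1756 bp and score 802 at chr6:117168183-117169938, centred 0.53 kb past its start site, another of score 68.2 beyond its far end, and its nearest Slug peak at 20.9 kb. Cxcl16, a transmembrane ligand of Cxcr6, had the highest Snail score near any member, 1193 at chr11:70451547-70452579, but that peak was centred 0.15 kb from an end of Med11, a Mediator subunit gene. The Snail peak at the high-coordinate end of Cxcl16, chr11:70459380-70460153, scored 148, at percentile 49.5 of its list, and lay 0.33 kb from an end of Zmynd15.

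Ccl27a (CTACK), a skin chemokine that binds Ccr10, had Snail peaks of scores 218 and 74.3 at its high-coordinate end, chr4:41773507-41773982 and chr4:41774008-41774440, and the weaker one lay over the promoter with the E-box. Another Snail peak, of score 494 at chr4:41760049-41760824, lay 9.03 kb from Ccl27a and 0.0065 kb from an end of the receptor gene Il11ra1. Ccl27b, a copy of Ccl27a, had no peak. The promoter windows of the inner starts of Ccl27a and Ccl27b were identical in 286 of 288 aligned bases. Those of Ccl21a and Ccl21d, ligands of Ccr7 that guide T cells and dendritic cells, were identical in 297 of 299. How the authors placed reads that match several copies is not given in the sources used here, so peaks in this stretch of chromosome 4 are uncertain. Ccl21d had 1 Slug peak of score 68.1 and Ccl21b had 4 of scores between 59.1 and 112. Those within 1 kb of an end of Ccl21b were chr4:42172644-42172773, 0.41 kb before the start site, and chr4:42256850-42257097, 0.15 kb beyond the far end. Ccl21b is annotated with a span of 83.7 kb, against 1.13 kb each for Ccl21a and Ccl21d, so its 2 ends lie far apart. No Snail peak lay near Ccl21b or Ccl21d, and Ccl21a and Ccl19 had neither factor.

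The epithelial chemokines on other chromosomes had mixed patterns. Cxcl14, expressed in many epithelia, had a Slug peak of score 182 inside the gene, 2.22 kb past its start site, and a Snail peak of score 56.5 at 8.99 kb. Ccl28, a mucosal chemokine of mammary and gut epithelium, had a Slug peak of score 55.2 at 3.11 kb before its start and 4 Snail peaks of scores between 51.6 and 292. The broadest of them, 4034 bp at chr13:119612888-119616921, was the sole Snail peak near a member to overlap a Slug peak, and an end of Tmem267 was nearer to it, at 4.45 kb. Ccl20, which attracts Ccr6-bearing cells, had a Snail peak of score 72.1 at chr1:83119796-83120236, 0.85 kb beyond its far end, and a Slug peak of score 64.1 at 9.97 kb. Cxcl17 had 3 Snail peaks of scores between 62.7 and 146, of which 2 were nearer to an end of Lipe.

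The Snail share differed in value between lone and clustered members, at 87.5% and 17.2%, against 64.4% of all protein-coding genes. A cluster was a run of members with gaps under 1 Mb, which put 29 members into 7 clusters and left 8 alone. Snail peaks lay within 10 kb of 7 of the 8 lone members and 5 of the 29 clustered ones. Slug peaks lay near 4 of the 8 lone members and 15 of the 29 clustered ones, both near the 47.9% of all protein-coding genes. The median distance to the nearest Snail peak was 1.82 kb for lone members and 50.7 kb for clustered ones. Clustered genes share their surroundings, so these are counts over 7 neighbourhoods rather than 29 separate genes.

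Within 10 kb of a gene end, Slug and Snail peaks of members rarely coincided. None of the 26 Slug peaks overlapped a Snail peak, against 21.9% of all Slug peaks within 10 kb of a protein-coding gene end. One of the 24 Snail peaks overlapped a Slug peak, the Ccl28 peak just described, against 13.9% of all such Snail peaks. The Slug partner at Ccl28, of score 58.6, was centred 10.05 kb from the gene and so fell just outside the limit. The shared sites inside Ccl25 and between Ccl5 and Ccl9, described above, also lay beyond it. Measured to start sites instead, the Slug peak of the Ccl25 site was 3.6 kb before the downstream start of Ccl25. Just inside the limit were the Slug peaks of Ccl22, at 9.99 kb, and Ccl20, at 9.97 kb, and just outside were those of Ccl8, at 11.5 kb, and Ccl21a, at 11.8 kb. A Snail peak of score 562 was also just outside, 11.45 kb from Cxcl9, which is counted as Slug alone. Among peaks within 10 kb of an end, at the 7 genes with both factors, the closest pair, at Ccl28, was 2.92 kb apart, followed by 4.05 kb at Cx3cl1 and 5.03 kb at Ccl25.

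Members' peaks were of middling strength within their lists. The 26 Slug peaks had a median score of 101, against 81.1 over the whole Slug list and 84.0 over all Slug peaks within 10 kb of a protein-coding gene end. The 24 Snail peaks had a median of 145, against 151 over the whole Snail list and 340 over all Snail peaks near gene ends. The nearest protein-coding gene end was that of a member for 23 of the 26 Slug peaks and 19 of the 24 Snail peaks. Only gene ends were compared, so peaks inside another gene can be among these, such as both Cxcl10 Slug peaks, inside Art3. Of the 3 highest Snail scores, 1193, 894 and 868, that of Cxcl16 lay 2.33 kb from the gene and nearer to Med11, and that of Ccl25 lay at an end of Elavl1 as well.

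The receptors gave shares close to those of their ligands. Of 23 chemokine receptor genes 10 (43.5%) had Slug peaks and 8 (34.8%) had Snail peaks within 10 kb, against the same 47.9% and 64.4% of all genes. The highest Slug scores were those of Ackr1, a scavenging receptor, with 272, Ccr9 with 176 and Ccrl2 with 157, none of which had a Snail peak. The highest Snail scores were those of Xcr1 with 897, Cxcr5 with 769 and Ackr3, a scavenger of Cxcl12, with 339. Cxcr4, the signalling receptor of Cxcl12, had a Snail peak of score 200 centred 0.08 kb from its high-coordinate end and no Slug peak.

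Interleukins and serpins, other gene families, served as a measure of scale. Among 33 interleukin genes, 16 (48.5%) were near Slug peaks and 18 (54.5%) near Snail peaks. Among 63 serpin genes, many of them clustered duplicates as well, 25 (39.7%) were near Slug peaks and 15 (23.8%) near Snail peaks. The Snail share of serpins was lower in value than that of the chemokine ligands, and no difference between families was tested. The NF-kappa-B subunits and inhibitors, which control inflammatory chemokines, had Slug near 7 of 9 genes, against 47.9% of all genes, and Snail near all 9, against 64.4%. The exact 95% interval of the Slug share, 40.0% to 97.2%, includes the share of all genes. That of the Snail share, 66.4% to 100%, begins just above the share of all genes. Their Snail scores ran up to 1364 at Nfkbia, which encodes the inhibitor I-kappa-B alpha, with 1291 at Rela and 1278 near Nfkb2. The Nfkb2 peak was centred 3.93 kb from the nearer gene end.

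**Figure D4:**
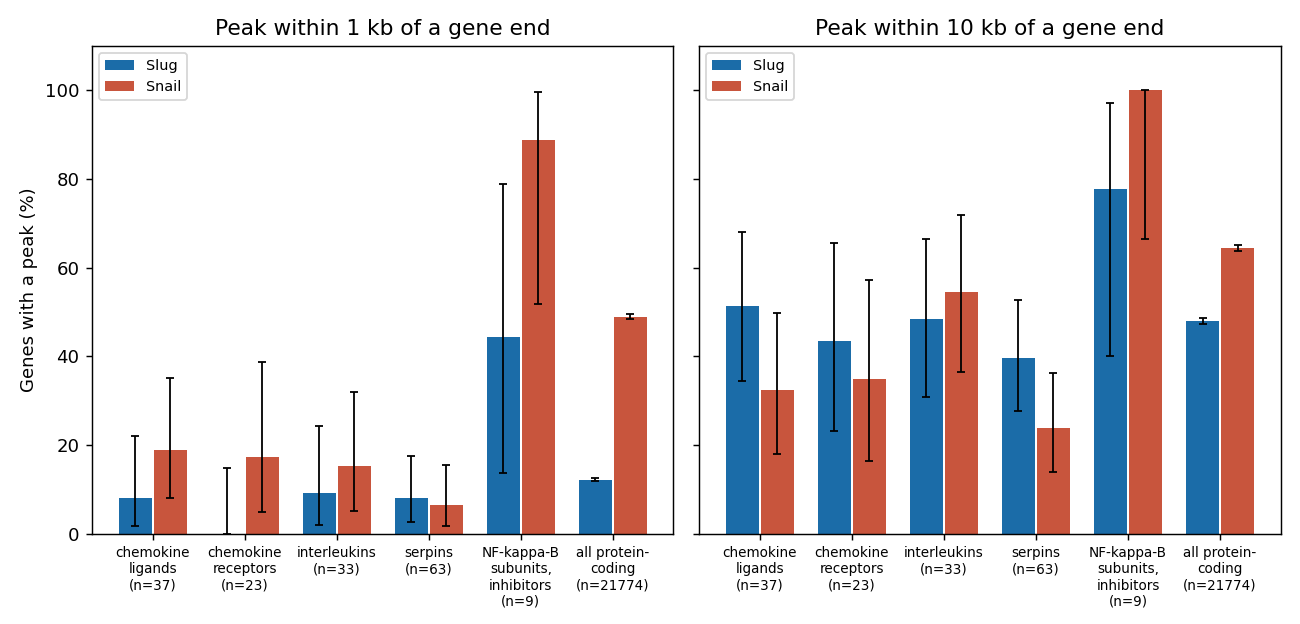
Percentage of genes with a Slug or a Snail peak within 1 kb (left) and 10 kb (right) of a gene end in each gene family, with exact binomial 95% intervals as bars and the number of genes below. The chemokine ligands have a Snail share of 32.4% within 10 kb, against 64.4% of all protein-coding genes, and a Slug share of 51.4%, against 47.9%.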

How the data were processed

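Each ChIP library of Slug in pBl.1G and of Snail in pBl.3G has 1 deposited peak list, with a score per peak from the authors' peak caller. The submitters' processing notes list Bowtie, MACS 1.4.2 and the mm10 build. Peak calling settings and the scale of the score are, like the control, not given in the sources used here. Depth is unknown. The input libraries were not used. Peak starts were made 1-based. Genes and promoters came from RefSeq tables of GRCm38.p6. Of 21887 protein-coding genes, 113 were left out as not placed on an assembled chromosome, which was inferred from breaks in the order of start positions. Calculations used Python 3.11.15, numpy 2.4.6, pandas 2.3.3, scipy 1.17.1 and matplotlib 3.10.9, and the assignment of peaks was checked on simulated data. Peak midpoints were measured to both gene ends. Lists were called overlapping from 1 bp. With 1 library per factor no test was made. Members and lists were chosen with earlier results of these data known. All members are accounted for, and given with positions are those with a peak within 1 kb or shared by both lists and the 5 highest scores of each factor. Receptors with the 3 highest scores of each factor are named, and Cxcr4 and the NF-kappa-B genes named were singled out after their values were seen. The Slug peak between Ccl8 and Ccl1 was singled out after its values were seen. Interleukin symbols ending in r were left out as receptors. CpG ratios were added after the peaks were seen. Alternatives changed the window, the score minimum, list length, overlap and gene set.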

Additional observations from a re-analysis of the deposited data

How the results depend on the processing

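The number of members near a peak depended mostly on the window. Within 1 kb, Slug marked 3 members and Snail 7 (4 and 8 distinct peaks). Within 2 kb, Slug marked 8 members and Snail 7 (10 and 9 distinct peaks), against 18.5% and 53.2% of all protein-coding genes. Within 5 kb, 14 distinct Snail peaks lay near members. Within 25 kb, Slug marked 30 members and Snail 19 (47 and 37 distinct peaks), against 69.9% and 72.1% of all protein-coding genes. With a score of at least 100, 12 members had a Slug peak, against 24.9% of all genes, and there were 14 distinct Slug and 14 distinct Snail peaks. Counting any base of a peak within 10 kb brought the Slug peak that overlaps at Ccl28 inside, giving 1 overlapping Slug peak. The number of overlapping Snail peaks was 0 with a reciprocal overlap of 50% and 0 with a score of at least 100. Leaving out the Ccl21 and Ccl27 genes of chromosome 4, an alternative chosen after seeing the data, left 17 members near Slug peaks and 11 near Snail peaks. The shares of all protein-coding genes were 47.9% and 64.4%. These counts leave out Ccl21a, Ccl21b, Ccl21d, Ccl27a and Ccl27b, so their base is smaller than the 37 members of the main counts. In every window tried the Snail share of members was below that of all protein-coding genes. No paired analysis was possible because there is 1 library per factor and no test. Depth is unknown, so a missing peak may be a weak one below the authors' limit.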

Other observations

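The duplicated stretch of chromosome 4 that holds Ccl27a, Ccl21d, Ccl21b, Ccl27b, Ccl19 and Ccl21a had 32 Slug peaks and 3 Snail peaks in 1025 kb, flanks included. That is 3.12 Slug and 0.29 Snail peaks per 100 kb, against 1.51 and 1.17 over the whole chromosome. Several Slug peaks recur at the same offset from copies of Fam205a, 5.24 kb from Fam205a4, 5.27 kb from Fam205a3 and 5.28 kb from Fam205a2, with scores of 61.3, 105 and 83.6. Others lie 42.4 kb from Fam205a4 and 42.4 kb from Fam205a3. All 3 Snail peaks lie at the Ccl27a and Il11ra1 end.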
